A study of Homo sapiens with 8 samples.

Results

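Anterior foregut endoderm (hAFE) was compared with undifferentiated human embryonic stem cells (hESC), using every gene row of 4 of the series' 8 RNA-seq libraries. The members were chosen by their labels alone: 2 libraries labelled hAFE and 2 labelled hESC. All are of H1, a single established human embryonic stem cell line, so the comparison describes 1 line. The other 4 libraries hold definitive endoderm (hDE), the stage between the 2 compared, and pharyngeal foregut endoderm (hPFE), the stage after hAFE; they served to estimate the spread and, for hDE, to place the 2 stages. The labels used here give no genetic change, agent or day for any group. Nor do they tell if the paired libraries of a stage were grown apart, so each p-value rests on a spread between libraries that may be technical. The titles mark the hESC and hDE libraries as re-analysed from earlier deposits and not those of hAFE and hPFE. Stage and library origin therefore coincide, and their parts in any difference between hAFE and hESC cannot be told apart.

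Primed human pluripotent stem cells keep their state through POU5F1 (OCT4), SOX2 and NANOG, transcription factors that bind together at octamer and SOX sites and also act on their own genes. Definitive endoderm is formed under Nodal signalling and loses SOX2. The anterior foregut, the front part of the gut tube that gives rise to pharynx, thyroid, lung and oesophagus, expresses SOX2 again, now together with the forkhead factors FOXA1 and FOXA2. Retinoic acid from neighbouring tissue binds receptors that sit on paired repeats in target genes and sets position along the gut, in part through the HOX genes.

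Promoter sequences are shown for 4 genes. The first 2, NANOG and SOX2, are of the pluripotency circuit, of which NANOG fell and SOX2 had no call. The other 2, RARB and CYP26A1, are retinoic acid targets that were called higher in hAFE. CYP26A1 was far higher in 1 hAFE library than in the other (8.13 and 414 CPM, against 5.47 and 2.43 CPM in hESC). The sequences are from RefSeq, build GRCh38.p14, plus strand, 5′ to 3′, and hold 250 bases before and 50 bases after the annotated start; the table held no promoter for POU5F1 or FOXA2. Capitals mark TTTGCAT (octamer core) and ACAATG (SOX site core) in the first 2, searched on both strands. In the other 2, capitals mark a DR5 retinoic acid element, a direct repeat of a nuclear receptor half-site with 5 bases between the copies, also searched on both strands.
NANOG, chr12:7789152-7789451: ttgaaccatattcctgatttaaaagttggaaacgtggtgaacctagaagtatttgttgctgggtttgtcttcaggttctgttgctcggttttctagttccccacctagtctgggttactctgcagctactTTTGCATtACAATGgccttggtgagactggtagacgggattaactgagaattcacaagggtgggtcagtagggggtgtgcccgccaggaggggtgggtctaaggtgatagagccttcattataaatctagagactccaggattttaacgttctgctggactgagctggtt
SOX2, chr3:181711675-181711974: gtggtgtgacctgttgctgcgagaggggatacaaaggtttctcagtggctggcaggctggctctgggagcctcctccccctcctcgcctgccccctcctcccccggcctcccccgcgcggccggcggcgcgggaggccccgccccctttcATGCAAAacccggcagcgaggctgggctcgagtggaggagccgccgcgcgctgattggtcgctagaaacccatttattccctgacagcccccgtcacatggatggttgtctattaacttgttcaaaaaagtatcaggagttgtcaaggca
RARB, chr3:25428013-25428312: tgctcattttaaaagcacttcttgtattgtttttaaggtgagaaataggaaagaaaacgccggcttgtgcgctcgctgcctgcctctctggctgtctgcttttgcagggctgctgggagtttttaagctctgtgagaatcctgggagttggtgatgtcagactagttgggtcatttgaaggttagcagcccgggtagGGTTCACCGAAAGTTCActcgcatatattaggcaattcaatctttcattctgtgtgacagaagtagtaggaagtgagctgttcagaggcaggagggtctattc
CYP26A1, chr10:93073643-93073942: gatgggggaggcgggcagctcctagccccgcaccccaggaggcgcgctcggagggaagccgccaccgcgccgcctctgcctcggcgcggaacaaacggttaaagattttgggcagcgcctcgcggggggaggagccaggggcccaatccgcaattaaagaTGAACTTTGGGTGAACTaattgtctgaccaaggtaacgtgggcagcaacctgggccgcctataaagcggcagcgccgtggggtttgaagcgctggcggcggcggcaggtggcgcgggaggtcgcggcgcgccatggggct

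The octamer core lay 120 bases and the SOX core 112 bases before the NANOG start, with 1 base between them. In the SOX2 promoter the octamer core lay 100 bases before the start on the opposite strand, and no SOX core was found in the window. Of 35116 promoters of this length, 4.46% held the octamer core, 10.8% the SOX core and 0.729% both. The DR5 element lay 53 bases before 1 of 4 annotated RARB starts and, on the opposite strand, 90 bases before 1 of 2 annotated CYP26A1 starts. It was found in 0.0883% of the promoters, which belong to 29 genes. Of the 10 of these genes that were measured, 3 were higher in hAFE, RARB and CYP26A1 among them, and 2 lower. Of all genes tested, 19.2% were higher and 20.6% lower, so the count says little about genes with the element. A match describes these letters only and says nothing of binding in these cells.

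Across the transcriptome, 6938 of 17446 genes tested (39.8%) differed between hAFE and hESC at an adjusted p under 0.05 (edgeR quasi-likelihood test), of which 3351 (19.2%) were higher in hAFE and 3587 (20.6%) lower. With a minimum of 2 fold as well, 2249 (12.9%) were higher and 2260 (13.0%) lower. The median log2 fold change over all genes tested was 0.01. The shares of 19.2% higher and 20.6% lower are the ones to set beside each list count below. Lists rich in genes hardly detected in hESC can hold few lower calls, so for them these shares are not a like measure. In bulk RNA, fewer cells of a type and less RNA per cell cannot be told apart. The call rests on both hESC libraries: 3125 genes were called without hESC library 1 and 2899 without hESC library 2, against 5611 and 5268 without hAFE library 1 or 2. In 13177 genes (75.5%) the 2 hAFE libraries did not overlap the 2 hESC libraries, so that alone says little about a gene. By class, long noncoding genes had 479 higher and 223 lower calls among 2109, with a median log2 fold change of 0.54, and protein-coding genes 2689 higher and 3268 lower among 14388, with a median of -0.03. Total counts were 13737594 and 12687161 in hAFE and 16785796 and 17802900 in hESC.

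The marker genes went with the labels. Of the 8 stem cell markers, POU5F1, NANOG, DPPA4, ZFP42, TDGF1 and PODXL were lower in hAFE, while SOX2 and LIN28A had no call. Of the 8 foregut markers, FOXA2, FOXA1, EPCAM, KRT19, ISL1 and SHH were higher in hAFE, SOX2 had no call and CDH1 was lower.

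SOX2 (hg38 chromosome 3, 181711924 to 181714436, plus strand) was not called between the stages, and its 2 hAFE libraries stood on either side of hESC. It had 158 and 57.2 CPM (counts scaled to library size) in hAFE, against 129.6 and 130.3 CPM in hESC. The mean was 108 ± 71.4 CPM in hAFE and 129.9 ± 0.523 CPM in hESC (SD, n = 2 each), a log2 fold change of -0.27 (SE 0.397, 95% interval -1.19 to 0.65, edgeR adjusted p = 0.613). The interval spans lower and higher levels in hAFE, so equal levels are not shown. Without hAFE library 1 the log2 fold change was -1.19 and passed the test (edgeR adjusted p = 0.0056), and without hAFE library 2 it was 0.28. Across the 3 stages in order, SOX2 had 129.6 and 130.3 CPM in hESC, 0.623 and 1.01 CPM in hDE and 158 and 57.2 CPM in hAFE.

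The partners of SOX2 in the stem cell circuit fell. POU5F1, which is required for pluripotency, had 0.397 and 0.439 CPM in hAFE, against 858 and 942 CPM in hESC (log2 fold change -11.05, SE 0.558, edgeR adjusted p = 3.67e-05). NANOG had 3 counts over both hAFE libraries and 4513 over both hESC libraries, a ratio of 1260-fold lower in hAFE with an exact binomial interval of 432 to 6120 that covers counting error only. POU5F1 and NANOG have close pseudogenes, between which the estimated counts may split reads.

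**Figure D1:**
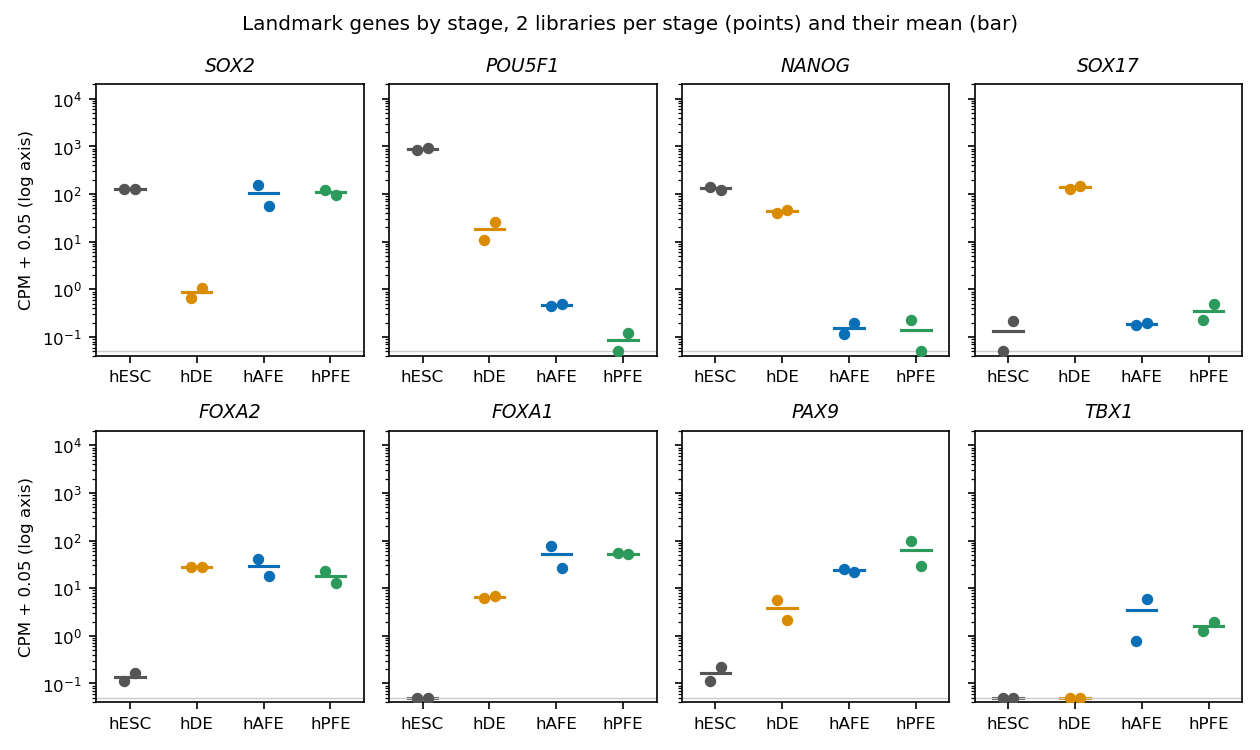
Levels of 8 landmark genes in every library, as CPM plus 0.05 on a log axis, over the 4 stages in order (2 points per stage, bar at the mean). SOX2 is high in hESC and hAFE and near 1 CPM in hDE, POU5F1 and NANOG are near 0 in hAFE, and FOXA1 is at 0 in both hESC libraries and at 26.7 and 78.6 CPM in hAFE.

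The core and primed pluripotency list fell almost as a whole: 28 of 30 measured genes were lower, 1 was higher and the list's median log2 fold change was -6.61, with 25 to 29 lower when 1 library was left out. Its summed level was 707 and 735 CPM in hAFE, against 8131 and 8611 CPM in hESC. TDGF1, the Nodal co-receptor CRIPTO, had 0.397 and 0.658 CPM in hAFE and 470.5 and 542 CPM in hESC (log2 fold change -9.90). The noncoding RNA LINC00678 was at 0 in both hAFE libraries, against 129 and 114 CPM in hESC, which makes it at least 1160-fold lower. FOXD3, a repressor needed in stem cells and neural crest, was at 0 in both hAFE libraries and at 6.91 and 8.71 CPM in hESC, at least 75.2-fold lower. FGF2, the growth factor that sustains primed cells, was lower by less: 17.3 and 12.8 CPM in hAFE and 172 and 162 CPM in hESC (log2 fold change -3.47). KLF4, a factor of the naive state, was the 1 gene called higher, at 12.4 and 2.27 CPM in hAFE and 0.781 and 0.791 CPM in hESC; it lost its call without hESC library 1 (edgeR adjusted p = 0.109), hESC library 2 (0.112) or hAFE library 1 (0.111). The largest falls outside the list included IDO1, which breaks down tryptophan and was at 0 in both hAFE libraries against 61.5 and 76.9 CPM in hESC (at least 667-fold lower).

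LIN28A and LIN28B hold back differentiation in part by blocking let-7 microRNAs. Genes of the LIN28 and oncofetal RNA-binding group mostly differed less than the pluripotency list. Of 19 measured, 3 (15.8%) were higher, 5 (26.3%) lower and 11 not called, with a median log2 fold change of -0.38. Of all genes tested, 19.2% were higher, 20.6% lower and 60.2% not called. In 8 members the 95% interval lay within 2 fold either way, as it did in 34.3% of all genes tested. LIN28A had 993 and 1265 CPM in hAFE and 1393 and 1545 CPM in hESC (log2 fold change -0.38, 95% interval -0.97 to 0.21, edgeR adjusted p = 0.261). LIN28B had 178 and 139 CPM in hAFE and 218 and 220.2 CPM in hESC, also with no call (95% interval -0.86 to -0.07, edgeR adjusted p = 0.0613); it was called lower without hAFE library 1 (0.0359). TRIM71, a ubiquitin ligase that is itself a let-7 target, was lower at 275 and 321 CPM in hAFE and 489 and 560.2 CPM in hESC. IGF2BP1, an mRNA-binding protein, was higher at 685 and 578 CPM in hAFE and 428 and 434 CPM in hESC. The small differences depend on single libraries: 0 members were called higher without hESC library 1, hESC library 2 or hAFE library 1, and 2 and 1 were called lower without hESC library 1 and 2. TRIM71 and IGF2BP1 were among the calls lost without those 3 libraries. Larger falls were seen in 2 genes of the piRNA pathway. PIWIL2 was at 0.33 and 0.293 CPM in hAFE and 18.0 and 18.3 CPM in hESC (log2 fold change -5.82). TDRD1 was at 0.0661 and 0 CPM in hAFE and 0.961 and 1.87 CPM in hESC, and lost its call without hAFE library 2 (edgeR adjusted p = 0.0513) or hESC library 2 (0.103).

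Some other SOX factors rose. Of 14 measured SOX genes, 5 were higher and 2 lower in hAFE (3 higher without either hESC library). The SOX shares were 35.7% higher and 14.3% lower, against 19.2% and 20.6% of all genes tested. SOX5, a SOXD factor without an activation domain, had 51.5 and 43.4 CPM in hAFE and 1.80 and 2.09 CPM in hESC (log2 fold change 4.60). SOX11, a SOXC factor of progenitors, had 344 and 238 CPM in hAFE and 57.4 and 56.5 CPM in hESC (log2 fold change 2.35). SOX21, a SOXB repressor, had 79.8 and 8.48 CPM in hAFE and 4.27 and 2.71 CPM in hESC; its call was lost without hESC library 1 (edgeR adjusted p = 0.0779) or library 2 (0.11). SOX17, the endoderm factor, was near the detection floor in both stages, with 4 counts in hAFE and 3 in hESC, and had 127 and 149 CPM in hDE.

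Among endoderm genes, FOXA1 and FOXA2 rose and FOXA3 fell. FOXA1 (hg38 chromosome 14, 37589984 to 37596059), a pioneer factor that opens chromatin for endoderm genes, had 78.6 and 26.7 CPM in hAFE and 0 counts in both hESC libraries, at least 617-fold higher (log2 fold change 12.61, or 11.62 without hAFE library 1, which had the higher level). FOXA2 (chromosome 20, 22581005 to 22585455), its close relative, had 41.2 and 17.7 CPM in hAFE and 3 counts in all in hESC, a ratio of 344-fold (exact binomial interval 117 to 1670); its fitted log2 fold change was 8.27, or 7.53 without hAFE library 1. FOXA3, the remaining member of the family, had 2.31 and 2.78 CPM in hAFE and 14.3 and 12.3 CPM in hESC (log2 fold change -2.38). The definitive endoderm list had 10 of 25 genes higher and 3 lower (median 1.37), and 7 and 6 higher without hESC library 1 and 2. PRDM1, a zinc finger repressor, had 43.6 and 69.3 CPM in hAFE and 0.481 and 0.226 CPM in hESC. GATA6, an endoderm regulator, was high in 1 hAFE library only: 22 and 0.585 CPM, against 0.12 and 0.0565 CPM in hESC. Its call was lost without hAFE library 1 (edgeR adjusted p = 0.119) and without either hESC library (0.107 and 0.122). Of 9 measured primitive streak genes 1 (11.1%) was higher and 1 (11.1%) lower (median -0.59), against 19.2% and 20.6% of all genes tested. EOMES and MIXL1, factors of the streak, were below 1 CPM in all 4 libraries.

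Foregut and pharyngeal genes rose in number. In the anterior foregut list 13 of 21 genes were higher and 1 lower (median 3.60), and in the pharyngeal list 19 of 27 were higher and 0 lower (median 4.24). All genes tested had 19.2% higher and 20.6% lower. Members hardly detected in hESC passed the filter only through a later stage and could hardly be called lower. The counts and medians are therefore no test of either list. Without hESC library 1 and 2, 6 and 6 foregut genes and 11 and 8 pharyngeal genes were called higher. PAX9 (chromosome 14, 36657568 to 36679715), which is required for the pharyngeal pouches and their glands, had 25.4 and 21.8 CPM in hAFE and 0.0601 and 0.17 CPM in hESC (log2 fold change 7.56, SE 0.943, edgeR adjusted p = 0.00108). SHH, the hedgehog ligand of foregut epithelium, had 8.72 and 13.8 CPM in hAFE and 0.0601 and 0.113 CPM in hESC. EYA1, a transcriptional cofactor needed in the pouches, had 34.6 and 99.5 CPM in hAFE and 2.76 and 2.71 CPM in hESC (log2 fold change 4.61, or 3.65 without hAFE library 2). Without hESC library 2 the log2 fold change of PAX9 was 8.43. GATA3, which acts in parathyroid development, was at 2.71 and 4.83 CPM in hAFE and at 0 in hESC, at least 42.5-fold higher.

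Several of these genes were far higher in 1 hAFE library than in the other. TBX1, the T-box factor of the pharynx, had 0.727 and 6 CPM in hAFE and 0 counts in hESC, at least 37.0-fold higher, and its call was lost without hESC library 1 (edgeR adjusted p = 0.0663) or 2 (0.072). ISL1, a LIM homeobox factor, had 5.22 and 39.8 CPM in hAFE and 0.3 and 0.17 CPM in hESC and stayed called without any 1 library. NKX2-3, a homeobox factor of pharyngeal and gut tissue, had 0.264 and 22.2 CPM in hAFE and 0 counts in hESC; it lost its call without hAFE library 2 (edgeR adjusted p = 0.193), hESC library 1 (0.145) or hESC library 2 (0.153). OTX2, a head organizer factor, had 17.0 and 333 CPM in hAFE and 46.4 and 53.3 CPM in hESC, so that the hAFE libraries lay on either side of hESC (log2 fold change 1.81, 95% interval -0.78 to 4.40, edgeR adjusted p = 0.229); without hAFE library 1 the log2 fold change was 2.73 (edgeR adjusted p = 0.0144) and without hAFE library 2 it was -1.55 (0.139).

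**Figure D2:**
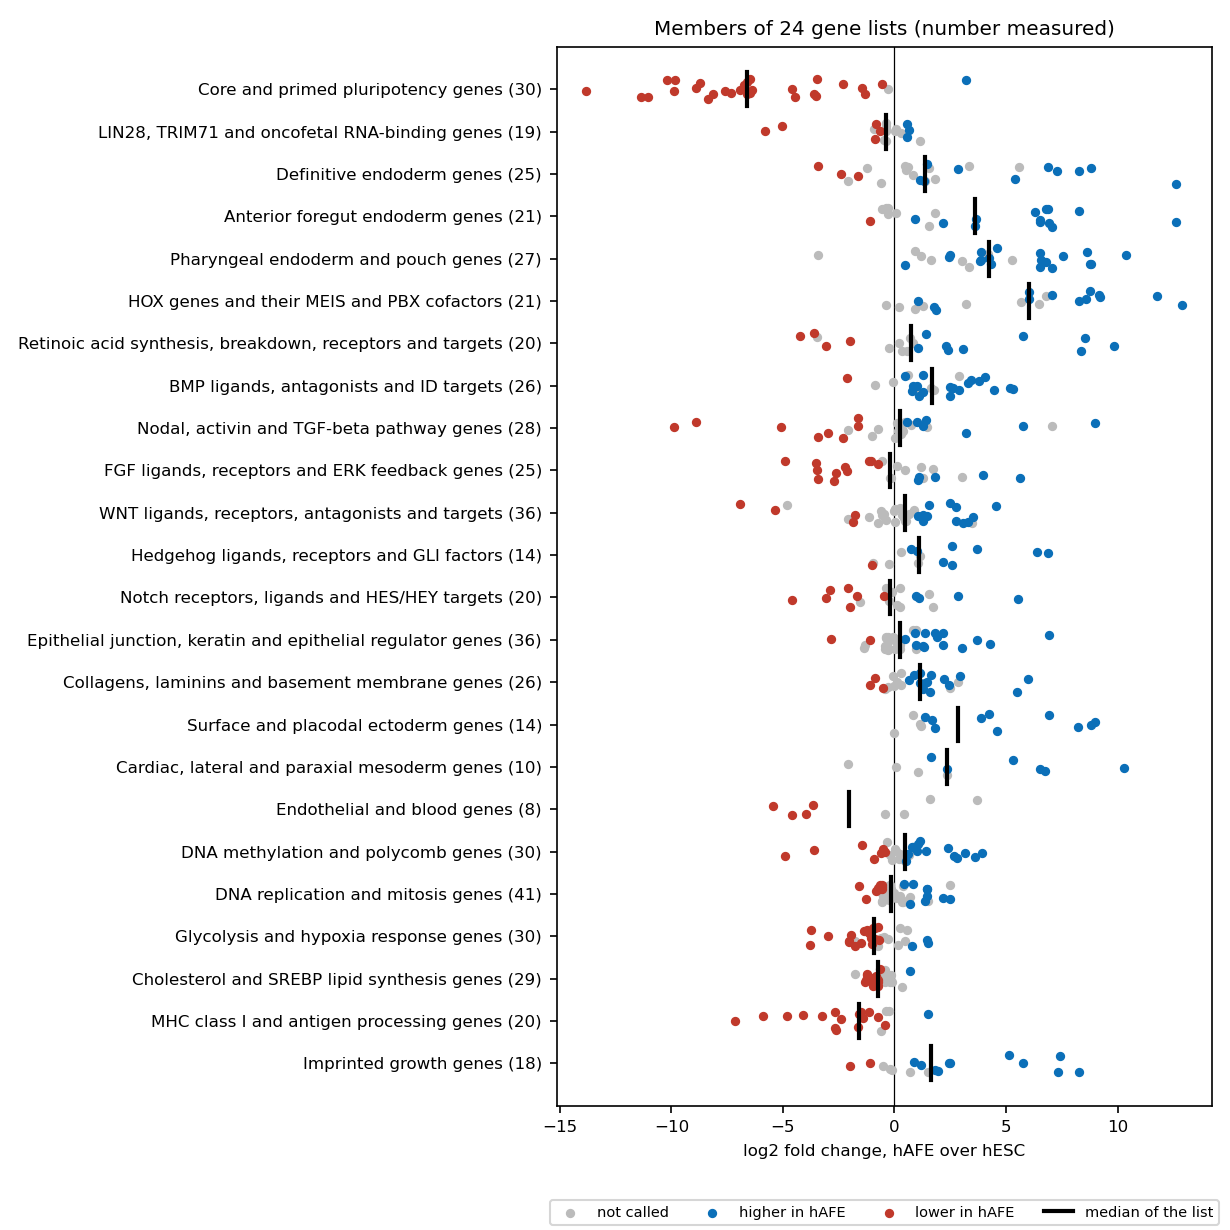
log2 fold change, hAFE over hESC, of each measured member of 24 gene lists (points; blue higher, red lower, grey not called by the edgeR test) with the list's median (bar) and the number measured in parentheses. Pluripotency genes lie to the left (median -6.61), and foregut, pharyngeal and HOX genes to the right (medians 3.60, 4.24 and 6.05).

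HOX genes, which give position along the body axis, and their MEIS and PBX cofactors had the highest median of the 36 lists. Of the 31 listed, those below the filter were left out. HOX members hardly detected in hESC passed it only through a later stage and could hardly be called lower. The count and median are therefore no test of the list. Of 21 measured, 13 were higher and 0 lower (median log2 fold change 6.05), but 4 and 4 were called without hESC library 1 and 2, 8 without hAFE library 1 and 16 without hAFE library 2. HOTAIRM1, a noncoding RNA of the HOXA cluster, had 55.5 and 3.73 CPM in hAFE and 0 counts in hESC, and its call was lost without hESC library 1 (edgeR adjusted p = 0.0555) or 2 (0.0594). HOXB2 had 8 and 1.83 CPM in hAFE and 0 counts in hESC, at least 58.0-fold higher. In both, hAFE library 1 was the higher, and without it their log2 fold changes were 8.79 and 7.76, against 11.78 and 9.19 with it. MEIS1, a cofactor that binds DNA with HOX proteins, was alike in both: 218 and 174 CPM in hAFE, against 0.18 and 0.452 CPM in hESC (log2 fold change 9.22, SE 0.499, or 10.03 without hESC library 2). PBX2, another cofactor, had no call and a 95% interval of -0.13 to 0.56 (log2).

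**Figure D3:**
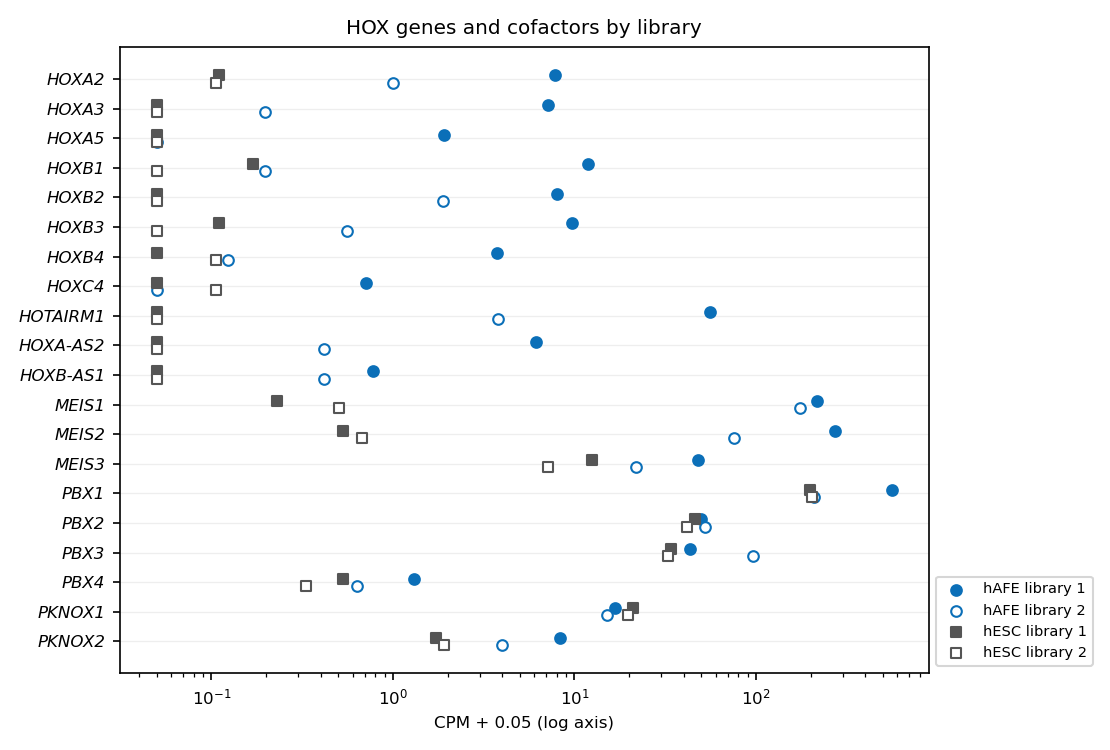
CPM plus 0.05 on a log axis of 20 HOX genes and cofactors in the 2 hAFE libraries (blue circles, filled for library 1) and the 2 hESC libraries (grey squares, filled for library 1). The HOX genes are at or near the left edge in hESC, HOTAIRM1 and HOXB2 are higher in hAFE library 1 than in library 2, and MEIS1 is alike in both hAFE libraries.

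Retinoic acid genes changed in both directions, 9 of 20 higher and 4 lower (median 0.75; 5 and 4 higher and 2 and 3 lower without hESC library 1 and 2). Among the receptors, RARB, itself induced by retinoic acid through the DR5 element printed above, had 149 and 81.5 CPM in hAFE and 0.12 and 0.113 CPM in hESC (log2 fold change 9.85, SE 0.771, edgeR adjusted p = 0.000194). RARG, another receptor, had 1.78 and 1.97 CPM in hAFE and 35.0 and 35.2 CPM in hESC (log2 fold change -4.22). CRABP1, which binds retinoic acid in the cytoplasm, was lower at 8.13 and 3.44 CPM in hAFE and 72.4 and 69.7 CPM in hESC.

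The 3 CYP26 enzymes, which break down retinoic acid, were among the 24 genes at 10 CPM or more whose 2 hAFE libraries lay furthest apart. CYP26A1 had 8.13 and 414 CPM in hAFE and 5.47 and 2.43 CPM in hESC. In hDE it had 1856 and 1609 CPM, above both hAFE libraries. CYP26C1 had 0.925 and 157 CPM in hAFE and 0.3 and 0.113 CPM in hESC. CYP26B1 had the opposite order, with 61.9 and 0.366 CPM in hAFE and 0.12 and 0.0565 CPM in hESC. All 3 were called higher (edgeR adjusted p = 0.0261, 0.0182 and 0.0186), and all 3 calls were lost without either hESC library. Without the hAFE library in which it was high, CYP26A1 had an edgeR adjusted p of 0.357, CYP26C1 of 0.0693 and CYP26B1 of 0.11.

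Of 28 measured Nodal and TGF-beta genes, 7 were higher and 8 lower (median 0.23). These shares lay near those of all genes tested, 19.2% higher and 20.6% lower. Without hESC library 1 and 2, 3 and 2 were higher, and without hAFE library 1, 5 were lower. NODAL, the ligand, had 0.132 and 0.146 CPM in hAFE and 0.961 and 1.36 CPM in hESC. FOXH1, the DNA-binding partner of SMAD2 and SMAD3, had 0.198 and 0.585 CPM in hAFE and 13.2 and 13.3 CPM in hESC (log2 fold change -5.08, or -4.49 without hAFE library 1 and -6.01 without hAFE library 2). TGFB2, another ligand of the family, had 132 and 33.5 CPM in hAFE and 1.62 and 1.47 CPM in hESC (log2 fold change 5.74). SMAD4, the shared signal carrier, had 158 and 130 CPM in hAFE and 143 and 141 CPM in hESC, with a 95% interval of -0.33 to 0.37. TGFB2 was at 4.43 on the log2 scale without hAFE library 1.

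BMP genes were mostly higher: 18 of 26 rose and 1 fell (median 1.70), with 7 higher without either hESC library. BMPR1B, a receptor, had 59.7 and 57.8 CPM in hAFE and 1.44 and 1.81 CPM in hESC (log2 fold change 5.17, SE 0.284). ID4, an inhibitor of DNA binding and a BMP target, had 50.9 and 84.0 CPM in hAFE and 3.66 and 4.35 CPM in hESC. The ligand BMP4 had 4.89 and 82.1 CPM in hAFE and 0.661 and 1.47 CPM in hESC, and its call was lost without hESC library 1 (edgeR adjusted p = 0.0897) or 2 (0.0726). BMPR1A, the other receptor, had no call and a 95% interval of -0.39 to 0.28.

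Of 25 FGF genes, 11 (44.0%) were lower, 5 (20%) higher and 9 not called (median -0.22), against 20.6% lower and 19.2% higher among all genes tested. Without hESC library 1 or 2 these counts were 7 lower and 3 higher, and without hAFE library 1, 10 were higher. The ERK feedback and target genes in the list went both ways or had no call. SPRY4, a feedback inhibitor, had 2.84 and 18.7 CPM in hAFE and 137 and 112 CPM in hESC (log2 fold change -3.54). ETV4, an ETS factor induced by ERK, had 2.58 and 12.1 CPM in hAFE and 71.8 and 85.1 CPM in hESC. Without hAFE library 2 the 2 log2 fold changes were -5.45 and -4.93, and both genes stayed called. DUSP4, a phosphatase that acts on ERK, rose instead, at 54.6 and 40.5 CPM in hAFE and 13.4 and 13.3 CPM in hESC. ETV5, a relative of ETV4, had 14.3 and 99.5 CPM in hAFE and 56.5 and 48.3 CPM in hESC (log2 fold change 0.12, edgeR adjusted p = 0.905); without hAFE library 2 the log2 fold change was -1.87 (0.000806), and without hAFE library 1 it was 0.92 (0.00828).

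Hedgehog genes rose: 8 of 14 were higher and 1 lower (median 1.12; 4 higher without either hESC library). PTCH1, both receptor and target, had 71.2 and 106 CPM in hAFE and 10.9 and 19.1 CPM in hESC, and GLI3, a zinc finger effector, had 24.5 and 39.3 CPM in hAFE and 5.23 and 5.43 CPM in hESC. GLI1, commonly read as a target of the pathway, did not pass (7.93 and 5.63 CPM in hAFE, 12.9 and 13.7 CPM in hESC; edgeR adjusted p = 0.0501), but was called lower under 8 of 15 alternatives, among them DESeq2, RLE scaling and leaving out hAFE library 1 (edgeR adjusted p = 0.0481). In the WNT list 12 of 36 were higher and 4 lower (median 0.45; 8 and 9 higher without hESC library 1 and 2). The WNT shares were 33.3% higher and 11.1% lower, against 19.2% and 20.6% of all genes tested. The ligand WNT5A had 32.5 and 27.7 CPM in hAFE and 3.60 and 3.56 CPM in hESC. SFRP2, a secreted WNT antagonist, had 1.19 and 0.0731 CPM in hAFE and 83.7 and 77.9 CPM in hESC (log2 fold change -6.94, or -9.96 without hAFE library 1 and -6.08 without hAFE library 2). LRP6, a WNT co-receptor, had no call, at 150.1 and 141 CPM in hAFE and 140.3 and 154 CPM in hESC (95% interval -0.29 to 0.27). In the Notch list 4 of 20 were higher and 7 lower (median -0.19), with 2 and 4 lower without hESC library 1 and 2 and 4 lower without hAFE library 1. HEY2, a Notch target, had 0.793 and 1.02 CPM in hAFE and 7.99 and 7.35 CPM in hESC.

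Epithelial genes changed in part. Of 36 measured, 14 were higher and 2 lower (median 0.26; 9 higher without either hESC library). PKP2, a desmosome protein, had 403 and 386 CPM in hAFE and 30.5 and 30.1 CPM in hESC (log2 fold change 3.70, SE 0.183). KRT8, a simple epithelial keratin, had 1306 and 529.6 CPM in hAFE and 189 and 215 CPM in hESC (log2 fold change 2.18, or 1.38 without hAFE library 1). CDH1, or E-cadherin, was lower at 126 and 99.3 CPM in hAFE and 245 and 239.9 CPM in hESC (log2 fold change -1.11, edgeR adjusted p = 0.0025), and CDH2, or N-cadherin, was higher at 363 and 353 CPM in hAFE and 39.7 and 41.9 CPM in hESC (log2 fold change 3.13). EPCAM was higher at 166 and 167 CPM in hAFE and 73.6 and 100.2 CPM in hESC. TJP1, a tight junction protein, had no call (95% interval -0.49 to 0.56).

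The matrix list had 14 of 26 genes higher and 3 lower (median 1.15; 10 and 8 higher without hESC library 1 and 2). COL2A1, a fibrillar collagen, had 623 and 757 CPM in hAFE and 10.1 and 11.8 CPM in hESC (log2 fold change 5.98, SE 0.522). LAMB1, a laminin chain, had 273 and 365 CPM in hAFE and 64.5 and 73.6 CPM in hESC. In the guidance list 18 of 31 were higher and 5 lower (median 1.88; 11 higher and 1 lower without either hESC library). EFNB2, an ephrin ligand, had 84.7 and 179 CPM in hAFE and 10.6 and 11.5 CPM in hESC (log2 fold change 3.57, or 2.93 without hAFE library 2). EPHA1, an ephrin receptor, was lower at 21.8 and 26.1 CPM in hAFE and 133 and 142 CPM in hESC.

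Markers of other cell types were counted beside these changes, and the part of such cells in the results was not tested. Counts are of members that passed the filter, which a gene high in hAFE alone can do. Measured were 14 of 21 surface and placodal, 10 of 25 cardiac and mesoderm and 23 of 27 mesenchymal markers listed. So were 10 of 15 neural crest, 14 of 28 neural and 15 of 25 amnion and trophoblast markers. The liver, pancreas, lung and hindgut list had 8 of 22 and the extraembryonic endoderm list 13 of 16. Of all genes tested, 19.2% were higher and 20.6% lower. Surface and placodal ectoderm markers had 10 of 14 higher and 0 lower (4 to 10 higher without 1 library: 5 and 4 without hESC library 1 and 2), with a summed level of 765 and 607 CPM in hAFE and 296 and 320 CPM in hESC. Cardiac and mesoderm markers had 6 of 10 higher and 0 lower (2 without either hESC library), summing to 120 and 178 CPM in hAFE and 18.3 and 19.5 CPM in hESC. MYL7, an atrial myosin light chain, had 23.4 and 23.1 CPM in hAFE and 0.3 and 0.113 CPM in hESC, while HAND2 was at 0 and 0.146 CPM in hAFE. Mesenchymal markers had 5 of 23 (21.7%) higher and 4 (17.4%) lower, near the shares of all genes tested. They summed to 1724 and 1419.9 CPM in hAFE and 680.2 and 682 CPM in hESC. TAGLN, CDH2 and FN1 had the most hAFE counts among them, with 14639, 10317 and 9214 over both libraries. In hESC these 3 had 969, 1402 and 2041. ACTA2, a smooth muscle actin, was at 72.9 and 216 CPM in hAFE and 2.34 and 1.92 CPM in hESC. PDGFRA, a growth factor receptor, had no call, at 28.4 and 1.02 CPM in hAFE and 1.44 and 3.11 CPM in hESC.

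Of 8 measured endothelial and blood markers, of 19 listed, 4 were lower, 0 higher and 4 not called, and their sum was 10.6 and 8 CPM in hAFE and 227 and 226 CPM in hESC. KDR, a VEGF receptor that stem cells also express, made up most of it, with 3.50 and 5.48 CPM in hAFE and 198 and 192 CPM in hESC. Neural crest markers had 4 of 10 lower and 1 higher and summed to 104 and 104 CPM in hAFE and 138 and 144 CPM in hESC, with SOX10, which marks the crest, lower at 0.0661 and 0.0731 CPM in hAFE and 0.901 and 0.735 CPM in hESC. Neural markers had 3 of 14 (21.4%) higher (1 without either hESC library) and 4 (28.6%) lower (2 without hESC library 1), near the 19.2% and 20.6% of all genes tested, and summed to 530.1 and 339 CPM in hAFE and 303 and 324 CPM in hESC, with ZIC2, a zinc finger factor, lower at 0.529 and 0.219 CPM in hAFE and 53.5 and 50.2 CPM in hESC. Amnion and trophoblast markers had 8 of 15 higher and 2 lower (4 higher without either hESC library) and summed to 166 and 192.5 CPM in hAFE and 39.7 and 32.6 CPM in hESC. ELF5 had 10.4 and 8.92 CPM in hAFE and 0 counts in hESC, while GABRP was at 0 in hAFE and at 4.57 and 1.87 CPM in hESC. Of the liver, pancreas, lung and hindgut markers, 2 of 8 were higher and 0 lower; they summed to 56.2 and 48.3 CPM in hAFE and 15.9 and 20 CPM in hESC, PDX1 had 0 counts in both stages, and CDX2 had 0 counts in hAFE and 1 in hESC. The extraembryonic endoderm markers had 6 of 13 higher and 2 lower (1 higher without either hESC library, 3 without hAFE library 1), summing to 615 and 569 CPM in hAFE and 590.2 and 603 CPM in hESC.

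Chromatin genes changed in both directions, with 14 of 30 higher and 7 lower (median 0.48; 9 higher without either hESC library, and 3 lower without hESC library 2). The list had 46.7% higher, against 19.2% of all genes tested, and 23.3% lower, near the 20.6% of all genes tested. DNMT3B, the de novo DNA methyltransferase typical of primed cells, had 40.6 and 22.9 CPM in hAFE and 817 and 1084 CPM in hESC (log2 fold change -4.90, SE 0.312). TET2, which oxidises methylated cytosine, had 107 and 83.0 CPM in hAFE and 13.7 and 13.1 CPM in hESC (log2 fold change 2.82), while TET1 was lower by 0.61 on that scale and lost its call without hESC library 2 (edgeR adjusted p = 0.0932). The polycomb subunit PHC1 was lower, with 71.1 and 75.2 CPM in hAFE and 959 and 827 CPM in hESC. Its relative PHC2 was higher, with 128 and 109 CPM in hAFE and 13.7 and 12.6 CPM in hESC. RNF2, the catalytic subunit of the same complex, had 55.7 and 58.5 CPM in hAFE and 54.7 and 57.8 CPM in hESC (95% interval -0.38 to 0.42).

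Imprinted growth genes had 11 of 18 higher and 2 lower (median 1.66). IGF2, a fetal growth factor, had 219 and 19.2 CPM in hAFE and 0.601 and 0.17 CPM in hESC, and H19, the noncoding RNA beside it, had 329.9 and 30.1 CPM in hAFE and 0.901 and 1.30 CPM in hESC. Both were more than 10-fold apart between the hAFE libraries and stayed called without any 1 library; without hAFE library 1 the log2 fold changes were 5.62 and 4.75, against 8.26 and 7.34 with it. PLAGL1, an imprinted zinc finger factor, was alike in both, at 25.2 and 29.9 CPM in hAFE and 0.541 and 0.452 CPM in hESC. SNRPN, of the chromosome 15 imprinted domain, was lower at 148 and 174 CPM in hAFE and 643 and 625 CPM in hESC.

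Glycolysis and hypoxia genes fell, 18 of 30 lower and 3 higher (median -0.91; 15 lower without either hESC library). HK1, a hexokinase, had 20.1 and 19.2 CPM in hAFE and 159 and 147 CPM in hESC (log2 fold change -2.96), and ALDOC, an aldolase, had 4.03 and 3.44 CPM in hAFE and 50.5 and 48.8 CPM in hESC. PKM, a pyruvate kinase, had no call (95% interval -0.17 to 0.70), and VEGFA, a hypoxia target, was higher at 104 and 62.4 CPM in hAFE and 34.2 and 24.7 CPM in hESC. Cholesterol and lipid synthesis genes had 14 of 29 lower and 1 higher (median -0.73), with 3 lower without hESC library 2, 8 without hAFE library 2, 11 without hESC library 1 and 18 without hAFE library 1. FDFT1, a squalene synthase, had 197 and 154 CPM in hAFE and 390.4 and 463 CPM in hESC.

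Class I MHC and antigen processing genes had 16 of 20 lower and 1 higher (median -1.61; 11 lower without either hESC library or without hAFE library 2). PSMB8, an immunoproteasome subunit, had 0.0661 and 0.0731 CPM in hAFE and 12.2 and 9.61 CPM in hESC (log2 fold change -7.13). TAP1, a peptide transporter, had 1.59 and 1.17 CPM in hAFE and 14.4 and 11.6 CPM in hESC. HLA-B was called higher, at 29.5 and 90.6 CPM in hAFE and 21.7 and 20.2 CPM in hESC, and lost its call without hAFE library 2 (edgeR adjusted p = 0.0783), hESC library 1 (0.116) or hESC library 2 (0.136). HLA genes share sequence, so their reads may be split among copies.

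Of 41 cell cycle genes, 9 (22%) were higher and 10 (24.4%) lower (median -0.17), close to the shares of all genes tested (19.2% and 20.6%), with 1 lower and 5 higher without hESC library 2, 5 lower without hESC library 1, 6 lower without hAFE library 2 and 6 higher without hAFE library 1. CDKN1C, a cyclin-dependent kinase inhibitor, was higher at 18.2 and 20.4 CPM in hAFE and 3.90 and 2.94 CPM in hESC, and BUB1, a mitotic checkpoint kinase, was lower at 98.5 and 84.4 CPM in hAFE and 263 and 283 CPM in hESC. Of 13 mitochondrial messenger RNAs, 7 were lower and 0 higher (median -0.50; 1 lower without hESC library 1). MT-CO3, an oxidase subunit, had 829 and 1025 CPM in hAFE and 3019 and 2545 CPM in hESC. Immediate early genes, which also respond to handling, had 8 of 20 higher and 2 lower, with JUN at 25.9 and 11.5 CPM in hAFE and 4.33 and 2.94 CPM in hESC, FOS at 13 and 11.5 CPM in hAFE and 16.0 and 14.2 CPM in hESC with no call, and MYC lower at 3.90 and 6 CPM in hAFE and 29.2 and 23.7 CPM in hESC. Of 19 stress response genes, 2 (10.5%) were higher and 1 (5.3%) lower, below the 19.2% and 20.6% of all genes tested.

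Between hDE and hESC, 41.9% of the genes tested were called (20.3% higher and 21.6% lower in hDE), while hAFE set against hDE had 30.2% called, of which 15.0% of all tested rose and 15.2% fell. SOX2 was among 1313 genes (7.53% of those tested) that were lower in hDE than in hESC and higher in hAFE than in hDE, each by the edgeR test. Both contrasts use the hDE libraries, so the number of genes in both is not a result. In these genes hAFE and hESC differed in 410 (189 higher, 221 lower), and 903 (68.8%) were not called, against 60.2% of all genes tested. In 558 the 95% interval between hAFE and hESC lay within 2 fold. B3GALT1, a galactosyltransferase, had 66.4 and 80.3 CPM in hESC, 1.07 and 0.869 CPM in hDE and 88.9 and 166 CPM in hAFE. MBNL1, a splicing regulator, had 21.9 and 23.5 CPM in hESC, 0.623 and 0.652 CPM in hDE and 40.0 and 22.8 CPM in hAFE. CLDN4, a tight junction claudin, had 15.3 and 15.1 CPM in hESC, 0 and 0.435 CPM in hDE and 21.6 and 38.2 CPM in hAFE. Their hAFE and hESC levels were not called apart, but B3GALT1 and CLDN4 were higher without hAFE library 1 (edgeR adjusted p = 0.00413 and 0.0134) and MBNL1 without hAFE library 2 (0.0166).

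The reverse pattern, high in hDE against both stages, held for 1477 genes (8.47%), of which 1007 (68.2%) were not called between hAFE and hESC. CER1, a secreted Nodal and WNT antagonist of anterior endoderm, had 1.38 and 2.43 CPM in hESC, 7219 and 7995 CPM in hDE and 1.85 and 3.66 CPM in hAFE. FGF17 had 0.12 and 0.113 CPM in hESC, 389 and 378 CPM in hDE and 0.397 and 0.146 CPM in hAFE. LEFTY2, a Nodal antagonist, had 2.94 and 1.24 CPM in hESC, 3509 and 3792 CPM in hDE and 0.463 and 0.878 CPM in hAFE. Its lower level in hAFE than in hESC (edgeR adjusted p = 0.0272) was not called without hESC library 1 (0.141) or hAFE library 1 (0.127).

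**Figure D4:**
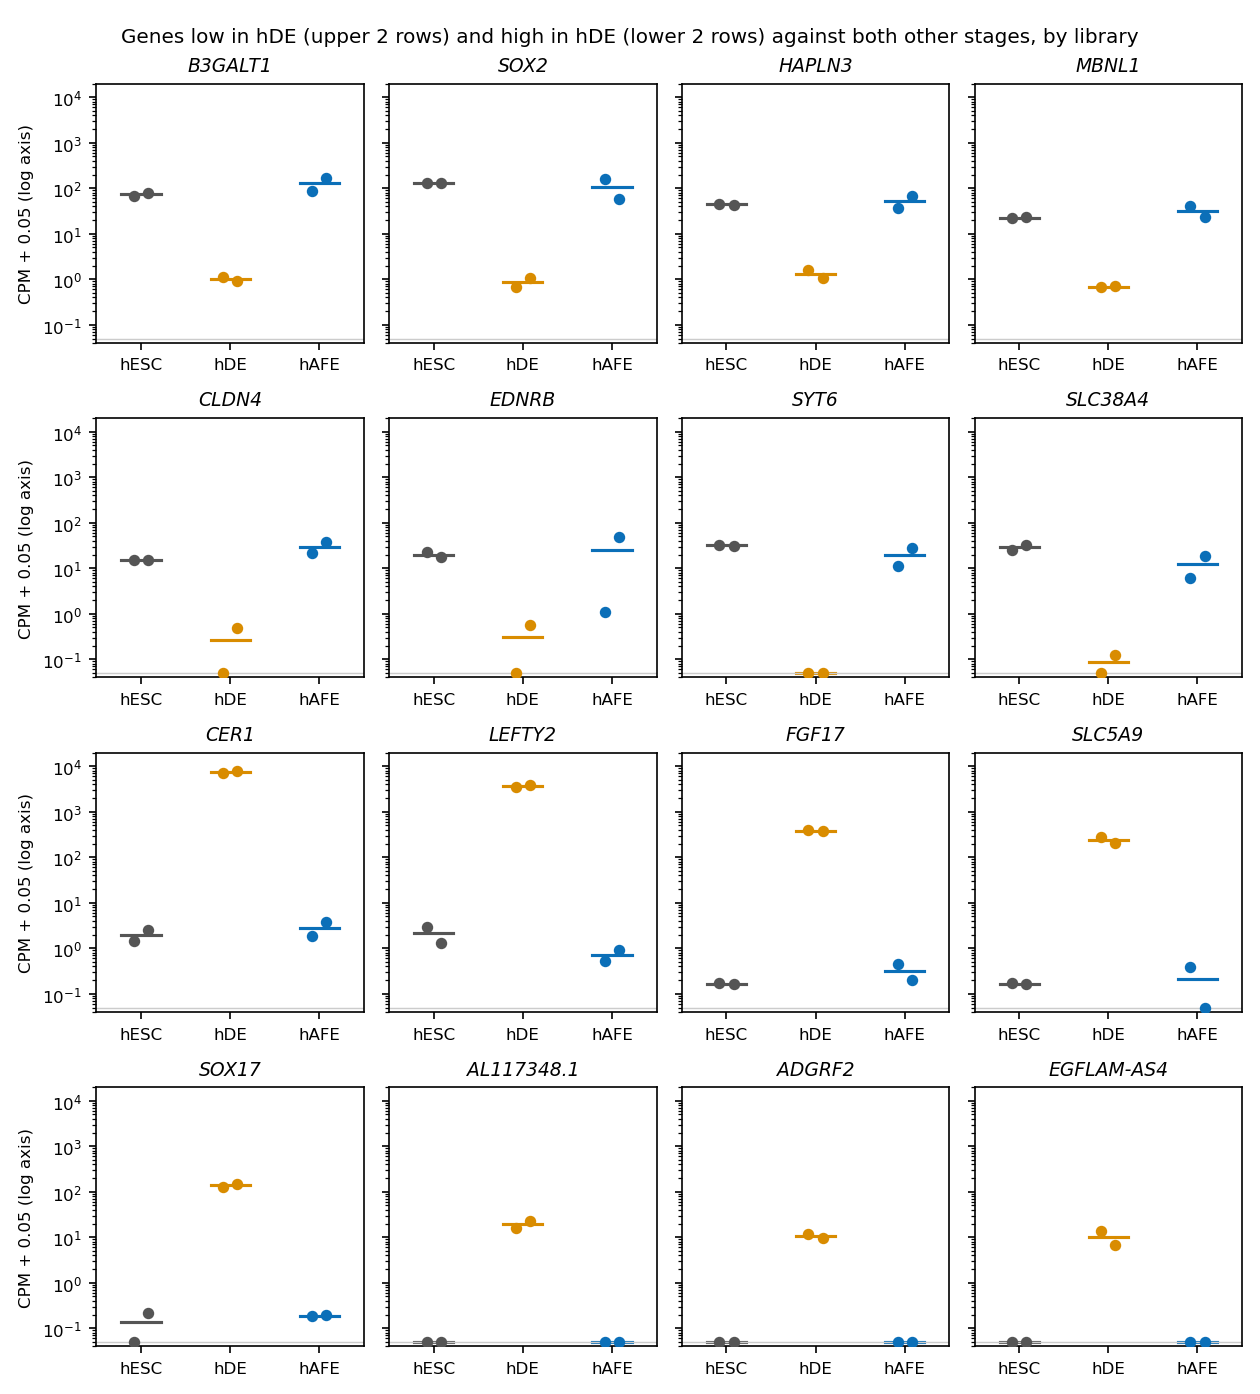
CPM plus 0.05 on a log axis in each library of hESC, hDE and hAFE, in stage order (2 points per stage, bar at the mean). The upper 8 genes, SOX2 among them, are low in hDE, and the lower 8, among them CER1, SOX17 and FGF17, are high in hDE only among these 3 stages; the genes were chosen for this pattern.

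The 2 hAFE libraries differed more from each other than the 2 hESC libraries did. Over 9852 genes the log2 difference between libraries of a stage had an SD of 0.59 in hAFE and 0.31 in hESC, and 600 genes were more than 2 fold apart in hAFE, against 54 in hESC. Among 9469 genes at 10 CPM or more on average in hAFE, 56 were over 4 fold higher in library 1 and 85 over 4 fold higher in library 2. The 12 genes furthest apart each way, found after their values were seen, included HOTAIRM1, CYP26B1, GATA6, IGF2, H19, PDGFRA and MEOX1 on the side of library 1. CYP26A1, CYP26C1, NKX2-3, NRP2, HPGD and CFTR were on the side of library 2. NRP2, a neuropilin receptor, had 15.3 and 619 CPM in hAFE and 56.5 and 47.2 CPM in hESC, with no call (edgeR adjusted p = 0.116); its log2 fold change was 3.57 without hAFE library 1 and -1.76 without hAFE library 2, called in opposite directions. MEOX1, a mesoderm homeobox factor, had 20.6 and 0.219 CPM in hAFE and 0 counts in hESC; its call (edgeR adjusted p = 0.0253) was lost without hAFE library 1 (0.0533), hESC library 1 (0.102) or hESC library 2 (0.109). Of the 3351 genes called higher, 119 had hAFE libraries over 4 fold apart.

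**Figure D5:**
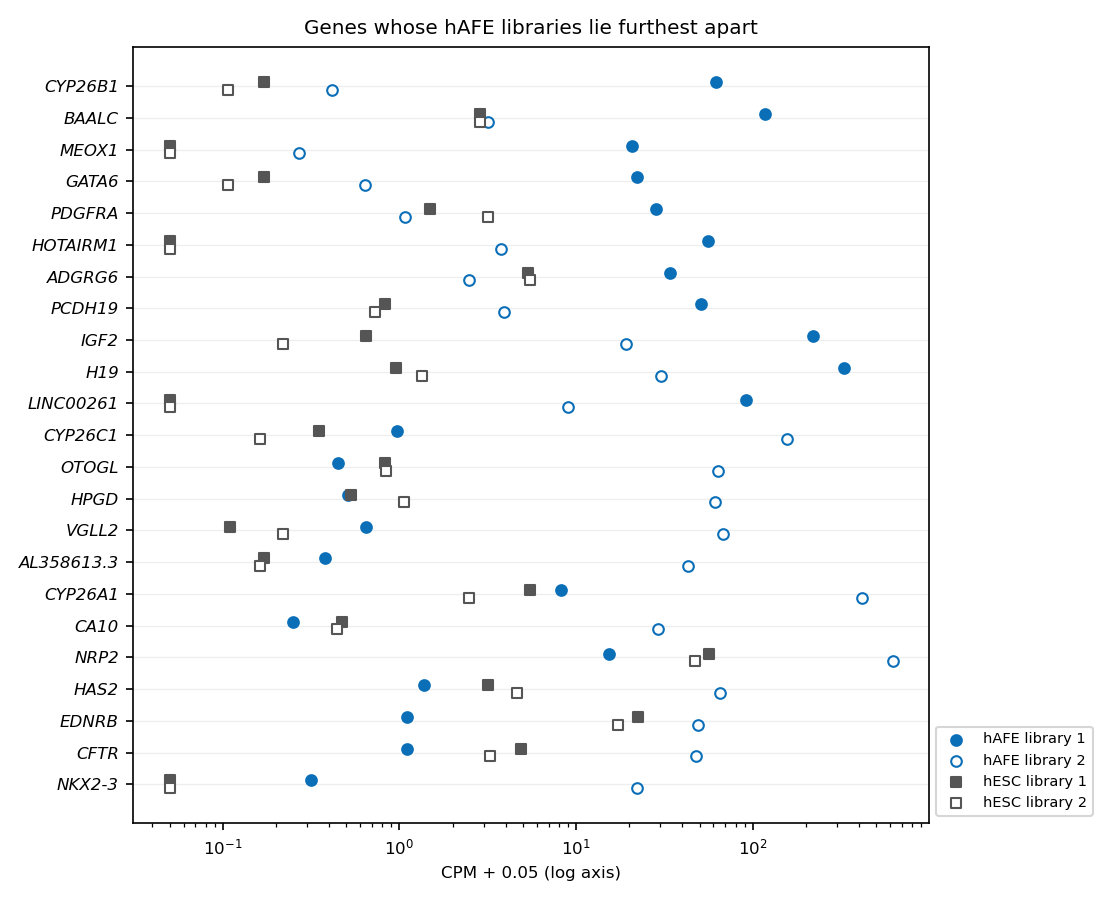
CPM plus 0.05 on a log axis of 23 of the 24 genes whose 2 hAFE libraries lie furthest apart (blue circles, filled for library 1) with the 2 hESC libraries (grey squares, filled for library 1). The upper 11 genes are higher in hAFE library 1 and the lower 12 in library 2, whereas the hESC libraries lie close together.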

How the data were processed

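RNA of H1 cells was depleted of ribosomal RNA and sequenced as strand-specific paired-end libraries, per the labels' protocols. RSEM on hg38 made the gene tables and DESeq2 is also listed, per the submitters' processing notes; for the aligner, nothing was given in the sources used. An expected count, as deposited, is RSEM's estimate for a gene and shares out reads that match more than 1 gene, so it need not be whole. TPM, as deposited by the authors, gives levels per length. Deposited effective lengths entered an alternative, and deposited posterior errors served to mark uncertain genes. All 58780 gene rows matched GENCODE 29, which gave symbols and positions.

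Expected counts were rounded and filtered (filterByExpr), leaving 17446 genes. A single edgeR 4.0.16 fit over 8 libraries and 4 stage terms (TMM scaling, R 4.3.3) gave quasi-likelihood tests for each contrast, with p-values adjusted by the Benjamini-Hochberg method across every gene tested (threshold 0.05); it assumes that the stages vary alike. CPM use TMM library sizes, and the SE is the size of the log2 fold change over the square root of the F statistic. For fold bounds a stage at 0 was taken at 3 counts over both libraries, 0.104 CPM in hAFE and 0.0874 CPM in hESC. Intervals on counts and floors cover counting error only, since the reads carry no molecular identifiers. The code was tested on simulated data.

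Genes were named by a rule: 8 landmarks, the 8 largest rises and falls, up to 5 members called each way and 3 uncalled from each list, 8 genes of each hDE pattern and 8 steady genes; marker genes and those furthest apart in hAFE were added. Members and lists were chosen with earlier results of these data known. Alternatives changed scaling, tool (DESeq2 1.42.0, limma 3.58.1), filter, gene length, genes kept, minimum fold, samples, replicate block and replicates; voom weights were added after seeing the data. Results for some genes are not reported here.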

Additional observations from a re-analysis of the deposited data

How the results depend on the processing

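Of 350 named genes, 233 were called between hAFE and hESC; 132 of these kept their call under every alternative that gave them a value, of 15 run, and 101 lost it under at least 1. Leaving out 1 library at a time gave 2899 to 5611 genes called, 1264 to 2722 higher and 1635 to 2889 lower in hAFE. It also gave 3695 to 7783 called between hDE and hESC, 757 to 1207 low in hDE and 886 to 1321 high in hDE; the lowest counts came without an hESC library, where the remaining one is assumed to vary like the other stages. ETV5 and NRP2, not called with all libraries, had log2 fold changes of -1.87 and -1.76 without hAFE replicate 2 and 0.92 and 3.57 without hAFE replicate 1. With limma on log2(TPM + 1), which understates changes of low genes and puts the median of all genes at 0.196, against 0.014 in the edgeR fit, 4290 genes were called, 1591 of them lower, with 62.9% of calls higher in hAFE against 48.3% in the edgeR fit; 2448 were low in hDE, 513 high in hDE and 9328 within 2 fold; the cause was not tested. A minimum of 2 fold left 4509 calls, 2260 lower and 935 high in hDE, as fewer genes can pass. DESeq2 called 6204 genes.

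With the replicate block 6470 genes were called, 3109 higher and 3361 lower. Same-numbered hESC and hAFE libraries deviated from their stage means with a correlation of -0.038 (-0.041 to 0.061 over all pairs of stages), so the block has no base in the design.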

Other observations

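Pseudogenes had 178 of 785 higher and 68 lower in hAFE, with a median log2 fold change of 0.45, against 0.01 over all genes tested. Histone genes had 1 of 70 higher and 9 lower, with a median of -0.28. Many histone messages lack a poly(A) tail and have near-identical copies, between which the estimated counts may split reads.

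Mitochondrial messenger RNA took 0.548% and 0.596% of the counts in hAFE and 1.04% and 0.820% in hESC. Small nuclear RNA took 1.46% and 1.80% in hAFE and 0.759% and 0.611% in hESC. Their part in the comparison was not tested.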
